A study of Homo sapiens with 47 samples.

Results

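Broad constant H3K27ac domains are stretches of the genome where peaks of histone H3 lysine 27 acetylation, merged over ChIP-seq libraries, spanned at least 4000 bp. A peak somewhere in the stretch was called in most of the libraries, whichever locus the synthetic activators had been sent to. The width is that of the merged peaks and was often not reached within a single library. Peaks of the 20 H3K27ac lists were merged where they shared 1 bp, and the members were chosen by 2 measured values, a merged width of 4000 bp or more and a peak in at least 16 of the 20 lists. Of 41675 merged intervals, 592 had both and lay outside 5 kb of every targeted locus, and 2 more that lay within it were left out. They are set beside the 2255 intervals with a peak in 16 or more lists that were narrower than 4000 bp, called here constant intervals of usual width, and beside all 41643 merged intervals outside 5 kb of the 19 targeted loci.

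All 47 libraries came from Ishikawa, a human endometrial adenocarcinoma cell line with an epithelial character, kept for at least 5 days in hormone-depleted media before plasmids were transfected and transfected cells were selected with drugs. Every library therefore carried an HA-tagged, nuclease-dead Cas9, either dCas9-VP16(10x), fused to 10 copies of a viral activation domain, or dCas9-p300(core), fused to the acetyltransferase core of p300. Libraries for H3K27ac and for RNA polymerase II (RNAPII) numbered 2 for each construct, gRNA set and antibody. Their gRNAs were Pool 1, Pool 2 or Pool 3, each directed at estrogen receptor binding sites (ERBS), or another set. The others were the Adjacent pool, directed at neighbouring regions, and gRNAs to the IL1RN promoter, the control. HA was measured in 7 libraries, 5 of dCas9-VP16(10x) and 2 of dCas9-p300(core). The gRNAs of the dCas9-p300(core) HA libraries are labelled ERBS, and those of the dCas9-VP16(10x) HA libraries ERBS, Adjacent or IL1RN. Titles of the ERBS libraries name all sites or all enhancers in place of a pool. No untransfected cells and no estrogen-treated cells enter the comparisons, and since chromatin of many cells was pooled, fewer cells with a mark and less of the mark per cell cannot be told apart.

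H3K27ac is laid down by acetyltransferases such as p300 and CBP on nucleosomes beside active promoters and active enhancers, and is used to find both. At most active promoters the mark flanks the start site narrowly. Long runs of it, sometimes called stretch enhancers or super-enhancers, are known mainly around genes that define a cell's identity. RNAPII gathers at active promoters and, more weakly, at active enhancers.

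Sequences from the members show the kinds of position that the domains cover. The first 3 lines give the 150 bases before the start site of a gene in a domain, chosen among the 10 widest domains and the listed genes, outside annotated UTRs. The last 3 lines give 150 bases around the summit of the strongest RNAPII peak in a wide domain with no annotated start site. Coordinates and bases are those of GRCh37 (hg19), and capitals mark the GC box GGGCGG, the CCAAT box, the TATA box motif TATAAA, the AP-1 site TGANTCA and the E-box CACGTG, each searched on both strands, of which not all occur in these windows.
MEIS1 chr2:66662107-66662256, plus strand: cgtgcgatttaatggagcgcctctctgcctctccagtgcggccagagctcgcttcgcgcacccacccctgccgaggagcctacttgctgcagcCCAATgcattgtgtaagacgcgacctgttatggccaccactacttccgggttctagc
JUNB chr19:12902150-12902299, plus strand: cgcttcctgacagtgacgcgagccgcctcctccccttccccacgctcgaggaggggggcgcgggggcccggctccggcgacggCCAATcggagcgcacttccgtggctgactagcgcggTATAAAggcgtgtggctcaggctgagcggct
PAX8 chr2:114036499-114036648, minus strand: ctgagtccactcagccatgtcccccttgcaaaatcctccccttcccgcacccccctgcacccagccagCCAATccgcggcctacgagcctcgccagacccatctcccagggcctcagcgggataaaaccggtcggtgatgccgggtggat
within FMN1 chr15:33411565-33411714, plus strand: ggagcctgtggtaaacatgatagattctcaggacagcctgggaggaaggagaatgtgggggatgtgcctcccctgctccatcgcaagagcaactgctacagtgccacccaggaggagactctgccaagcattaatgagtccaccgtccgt
within NOTCH1 chr9:139422209-139422358, plus strand: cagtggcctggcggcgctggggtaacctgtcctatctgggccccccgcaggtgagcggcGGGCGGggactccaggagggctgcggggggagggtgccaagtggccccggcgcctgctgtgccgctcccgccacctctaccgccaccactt
within STX18 chr4:4522914-4523063, plus strand: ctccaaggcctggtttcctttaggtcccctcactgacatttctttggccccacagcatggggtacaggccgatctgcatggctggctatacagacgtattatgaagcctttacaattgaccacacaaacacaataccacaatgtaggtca
The JUNB window holds a CCAAT box, a TATAAA match and 19 CG dinucleotides in these 150 bases, and the windows within FMN1 and STX18 hold 3 and 2 CG dinucleotides and none of the motifs.

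The libraries differed widely in what they called. The 10 dCas9-VP16(10x) H3K27ac lists held 5322 to 32052 peaks and found 572 to 592 of the domains. The 10 dCas9-p300(core) lists held 1805 to 24280 and found 378 to 590. Lists of peaks do not carry the read depth. In 5 H3K27ac lists (dCas9-p300(core) Adjacent replicates 1 and 2 and IL1RN replicate 1, dCas9-VP16(10x) IL1RN replicate 1 and Pool 1 replicate 1) the median fold enrichment at the domains was 0.432 to 0.707 times that at constant intervals of usual width, against 1.02 to 1.41 times in the other 15. In those 5 lists, domains with a start site had a median fold of 47.9 to 92.2 and domains without one a median of 10.7 to 22.4. The results below are therefore also given for domains found without these 5 lists, where 12 of the remaining 15 lists were required. That gave 602 domains, of which 539 overlapped one of the 592. The names of the peaks in the list labelled dCas9-VP16(10x) Pool 1 replicate 2 carry a p where those of its companion lists carry a v, while its title carries a v. The label was kept. This list held 28585 peaks, beside 24890 to 32052 in the dCas9-VP16(10x) H3K27ac lists whose peak names, like its own, lack a numeric prefix, and 1805 to 4346 in such dCas9-p300(core) lists. A second H3K27ac list, labelled dCas9-VP16(10x) Adjacent replicate 1, carries off_il1rn in its title and peak names. Its label was also kept.

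A peak in most lists is what the rule asked for, whereas breadth within a single list is not. Of the 592 domains, 259 had a peak in all 20 lists, 558 in every dCas9-VP16(10x) list and 264 in every dCas9-p300(core) list. A single peak of 4000 bp or more was called in at least 1 list for 486 domains, in at least 5 lists for 188, in at least 10 for 14 and in at least 16 for 1, an intergenic domain of 11510 bp at chr12:52536217-52547726, 38072 bp from the start of KRT80, which was picked out after its values were seen. In the median domain a dCas9-VP16(10x) list covered 24.8% to 92.2% of the bases (median 80.2%, n = 10). A dCas9-p300(core) list covered 4.45% to 32.2% (median 22.0%, n = 10). Single peaks of 4000 bp or more lay in 4 to 320 domains per dCas9-VP16(10x) list (median 209). In the dCas9-p300(core) lists the range was 0 to 34 (median 5). Breadth within single lists thus came mostly from dCas9-VP16(10x) lists, which also held more peaks (median 25025 against 6143). When only bases covered by 5 or more lists counted toward the width, 276 intervals passed in place of 592.

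Width ranged from 4002 to 28716 bp with a median of 5532 bp, against a median of 2232 bp at usual width, and 73 domains spanned 10000 bp or more. The threshold cuts a continuous distribution: 44 members were under 200 bp above the limit and 49 constant intervals were at most 200 bp below it. The narrowest members were JADE1 (4002 bp), chr11:127928340-127932346 (4007 bp) and chr9:79085125-79089138 (4014 bp), and the widest intervals just outside were 3992, 3987 and 3963 bp wide. At the other limit, 77 members had a peak in exactly 16 lists, and 63 intervals of 4000 bp or more had one in 15.

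**Figure D1:**
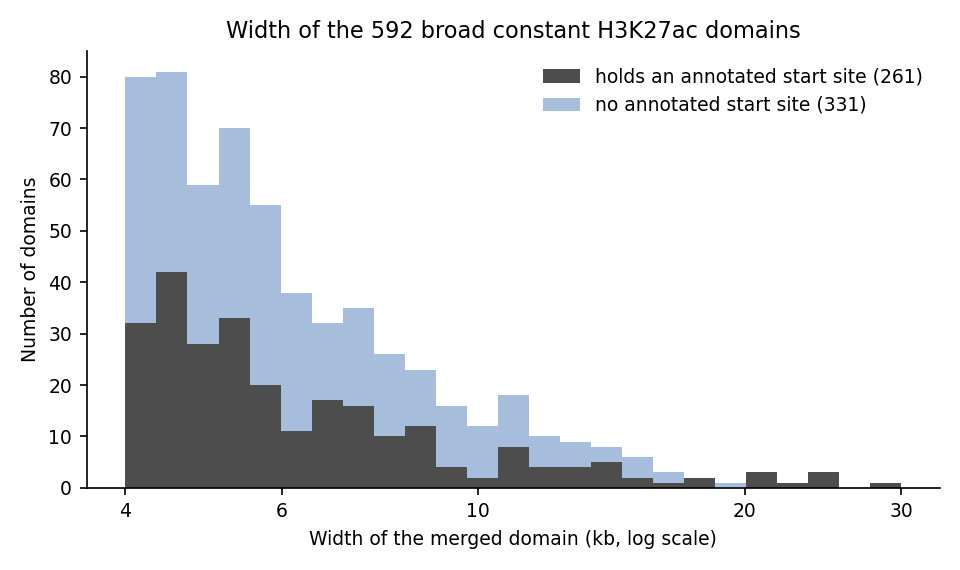
Number of domains by merged width in kb (log scale), stacked by whether an annotated start site of a protein-coding or lncRNA gene lies inside. Both kinds run from 4 kb upward, and the domains above 20 kb hold a start site.

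The widest domain, of 28716 bp at chr22:46458437-46487152, held the starts of the lncRNA genes LINC02939 and ENSG00000289044 and was also the domain with the highest median H3K27ac fold, 56.7 over the 20 lists. Its fold ranged from 33.1 to 215 (median 60.2, n = 10) with dCas9-VP16(10x) and from 13.7 to 153 (median 48.4, n = 10) with dCas9-p300(core), so the constructs overlapped. A second domain, of 7254 bp, lay just before it over MIRLET7BHG, the host gene of let-7 microRNAs, and another, of 16123 bp, followed at chr22:46497457-46513579.

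Among the other widest domains, ADGRL2 (25038 bp) encodes an adhesion receptor of the latrophilin family, and 98.6% of its domain was intronic. HOXB6, HOXB7 and HOXB8, homeobox factors of body patterning, shared 1 domain of 24798 bp that lay next to a second domain over HOXB3 and HOXB5, and the pair spanned 40221 bp. EPHA5 (23784 bp) encodes an ephrin receptor, EYA4 (22124 bp) a transcriptional coactivator, SP8 (21017 bp) a zinc finger factor and MEIS1 (20795 bp) a homeobox partner of HOX proteins. AMOTL2 (20352 bp), an angiomotin family member that binds YAP, and CXXC5 (18007 bp), a zinc finger protein, completed the genes among the 10, and chr15:33395444-33414149 (18706 bp) lay inside FMN1, which encodes a formin.

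At MEIS1 the H3K27ac fold ran from 26.5 to 145 (median 45.3, n = 10) with dCas9-VP16(10x) and from 15.1 to 114 (median 26.5, n = 10) with dCas9-p300(core). The FMN1 domain ran from 21.0 to 41.7 (median 28.2, n = 10) and from 7.11 to 20.6 (median 12.4, n = 10), and here every dCas9-VP16(10x) library lay above every dCas9-p300(core) library. These folds are values that chose the members and carry no test, and 3 of the 10 dCas9-p300(core) libraries are among the 5 lists set apart above. They are also not centred, and the separation was not particular to FMN1. Over all domains without a start, the dCas9-VP16(10x) library medians were 17.9 to 37.8 (median 27.9, n = 10). Those of dCas9-p300(core) were 8.9 to 13.6 (median 11.2, n = 10). At domains with a start the library medians overlapped. They were 18.2 to 92.2 (median 30.7) for dCas9-VP16(10x) and 9.59 to 60.7 (median 12.9) for dCas9-p300(core). At usual width, where most intervals hold a start, they overlapped too, at 14.2 to 70.9 (median 23.2) against 8.07 to 51.2 (median 10.2). Intervals of usual width without a start were not set apart for these folds.

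**Figure D2:**
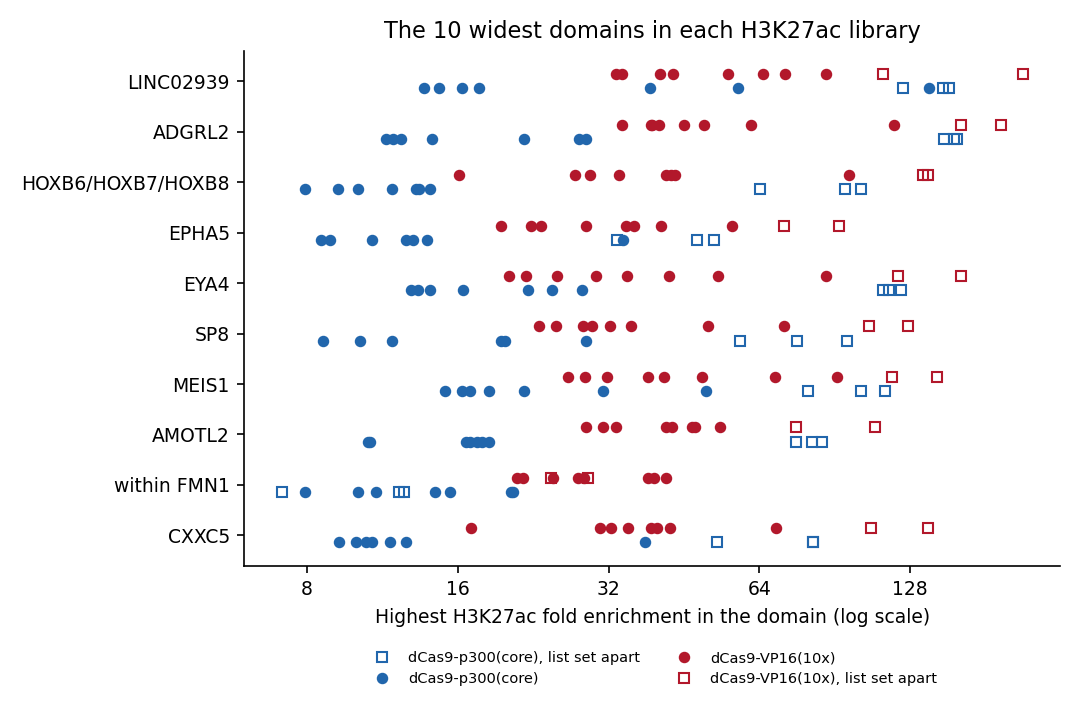
Highest H3K27ac fold enrichment (log scale) in the 10 widest domains, 1 point per library, with open squares for the 5 lists whose fold was lower at the domains than at usual width. At the domains with a start site the open squares mostly lie among the highest values, and at the domain within FMN1, which has none, they lie among or below the others.

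After LINC02939, the highest median folds were at ENSG00000261334 (56.0), a lncRNA domain of 11623 bp on chromosome 9, at an intergenic domain 4588 bp from the start of MKNK2 (50.9, chr19:2055831-2062934), at ABHD11 (47.8), which encodes a hydrolase, and at RHOF and SETD1B (47.6), a small GTPase and a histone H3 lysine 4 methyltransferase. The highest single dCas9-VP16(10x) value at ENSG00000261334 was 150 and the lowest 34.0 (n = 10).

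An annotated start site of a protein-coding or lncRNA gene lay in 261 of the 592 domains (44.1%), of which 206 held a protein-coding start and 55 only lncRNA starts. At usual width the share was 81.0% (1827 of 2255), and over all merged intervals it was 29.2%. Per 10 kb, the domains held 0.6 protein-coding starts and the intervals of usual width 3.89. For domains found without the 5 lists the share was 38.5% (232 of 602), beside 75.9% at usual width. Counting the start of every basic transcript in place of the canonical one gave 50.7% and 83.8%. Where a domain held exactly 1 protein-coding start (n = 179), it reached a median of 2237 bp upstream and 3362 bp downstream, and it was longer on the downstream side in 114.

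The 331 domains without a start site were no narrower (median 5597 bp against 5450 bp). They lay a median of 51828 bp from the nearest protein-coding start, with 270 over 10000 bp away, and 194 had their midpoint inside a protein-coding gene. Introns made up 70.6% of their bases, exons 6.29% and intergenic sequence 23.1%, and 124 were wholly intronic. The widest after FMN1 lay within NOTCH1 (17014 bp, chr9:139410514-139427527), which encodes a signalling receptor, then on chromosome 22 (16123 bp, above), within STX18 (15557 bp, chr4:4512777-4528333), a syntaxin gene, and within PALLD (15035 bp, chr4:169550746-169565780), which encodes an actin-binding protein. Some genes held several: 4 domains without a start lay in each of FMN1, TPRG1 and SHROOM3, and 3 in each of 8 further genes, among them PALLD, CELSR1 and AFF1. Of all 592, 109 domains stood in 50 groups whose members were under 10000 bp apart, and the longest, 4 domains on chromosome 5, spanned 42115 bp at chr5:57098136-57140250.

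Base composition followed the start sites. Domains with a start had a median of 57.8% GC and 4.0 CG dinucleotides per 100 bases, and domains without a start had 46.3% and 1.2. The corresponding intervals of usual width had 59.3% and 6.39 with a start, and 50.9% and 1.89 without. Around the 412 start sites in the domains (250 bases before to 50 after), GGGCGG was present in 67.2%, CCAAT in 31.6%, TATAAA in 8.5%, TGANTCA in 6.8% and CACGTG in 6.8%. Over all 38596 start sites of such genes the shares were 42.6%, 35.6%, 12.6%, 7.62% and 7.17%. Around the 2649 starts in intervals of usual width they were 75.7%, 33.7%, 4.68%, 3.78% and 10.5%. In the 200 bases around the strongest RNAPII summit, TGANTCA was present in 15.1% of the 317 domains without a start that had such a summit, in 77 of 405 such intervals of usual width, a larger share, and in 7.47% of all 16179 merged intervals without a start. These shares are descriptions of letters and carry no test.

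Genes that mark this kind of cell were among the members. Of 13 genes of simple epithelia, 6 had their start in a domain: KRT8, KRT18, CLDN4, ELF3, ESRP1 and ESRP2. Of 16 endometrial and Mullerian lineage factors there were 4 (ESR1, PAX8, EMX2 and MSX1), of 16 AP-1 and immediate early genes 4 (JUNB, JUND, IER2 and ZFP36), and of 13 growth signalling and cell cycle genes 2 (CCND1 and VEGFA). The nuclear lncRNAs NEAT1 and MALAT1 were both members. Of all 19894 protein-coding genes, 239 (1.2%) had their start in a domain. None of the 13 annotated marker genes of stroma, leukocytes and endothelium had its start in any merged interval, and PECAM1 was not found under that symbol. Members of the same lists also stood outside: KRT7 had a peak in 1 list, GRHL2 a constant interval of 3864 bp, and PGR, FOXA2 and HOXA11 no interval at the start.

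ESR1, which encodes estrogen receptor alpha, had a domain of 15779 bp at chr6:152124127-152139905 with a peak in all 20 lists. Its H3K27ac fold ran from 19.6 to 135 (median 35.6, n = 10) with dCas9-VP16(10x) and from 10.9 to 98.7 (median 17.6, n = 10) with dCas9-p300(core), and the ranges overlapped. All 20 RNAPII lists had a peak there. The median fold, as deposited, was 15.7 in the 10 dCas9-VP16(10x) libraries, the lowest at 9.5. It was 24.6 in the 10 dCas9-p300(core) libraries, which ran from 10.7 to 40.2. Deposited RNAPII folds were lower with dCas9-VP16(10x) over all intervals compared below (median difference -0.72, log2). After centring on each library's median, ESR1 was not called in either direction. PAX8, a paired-box factor of the Mullerian tract, had 7411 bp, EMX2, a homeobox factor of the urogenital tract, 12811 bp, and MSX1, a homeobox factor, 4466 bp with a peak in only 16 lists.

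JUNB, an AP-1 subunit, had the widest domain of the listed genes after ESR1 (15340 bp, 19 lists), while JUND, its relative, was near the lower limit (4046 bp, 20 lists). Cyclin D1 (CCND1) had 11268 bp in 16 lists, 6 of them with dCas9-p300(core). The epithelial domains were 8611 bp at KRT18, a keratin gene of simple epithelia, 7475 bp at the tight-junction gene CLDN4, 6825 bp at KRT8, 5053 bp at the transcription factor gene ELF3, 4890 bp at ESRP1 and 4773 bp at ESRP2, the last being splicing regulators of epithelia. The domain of the glycolytic gene GAPDH (4447 bp), from the list of ubiquitously used genes, had a dCas9-p300(core) median of 7.64 (range 6.85 to 46.2, n = 10).

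RNAPII was measured independently of the rule. A peak in 16 or more of the 20 RNAPII lists was found in 339 of the 592 domains (57.3%), in 88.5% of intervals of usual width and in 30.1% of all merged intervals. For domains found without the 5 H3K27ac lists it was 49.7% (299 of 602), beside 82.3%. The start site divided the members: 236 of the 261 domains with a start (90.4%) had RNAPII in 16 or more lists, and 103 of the 331 without one (31.1%). At usual width these shares were 98.9% and 44.2%. When only 1000 bp around the midpoint was examined, which gives each interval the same length, the share was 31.1% of all domains and 86.6% at usual width. RNAPII peaks covered a median of 34.3% of a domain with a start and 2.76% of one without.

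All 20 RNAPII lists had a peak in 265 domains and none in 14, all of them without a start. The widest of those 14 was chr3:80141240-80150680 (9441 bp, 324092 bp from the start of ROBO1), followed by chr13:67709285-67716758 within PCDH9, chr18:30759503-30766111 within CCDC178, chr14:26268689-26274928, which is 749336 bp from the start of STXBP6, and chr20:49357884-49363912 within PARD6B. At the first of these, H3K27ac was called in all 20 lists, at 29.1 to 58.4 (median 40.9, n = 10) with dCas9-VP16(10x) and 9.54 to 25.3 (median 13.3, n = 10) with dCas9-p300(core). Neither RNAPII nor HA was called there in any library.

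**Figure D3:**
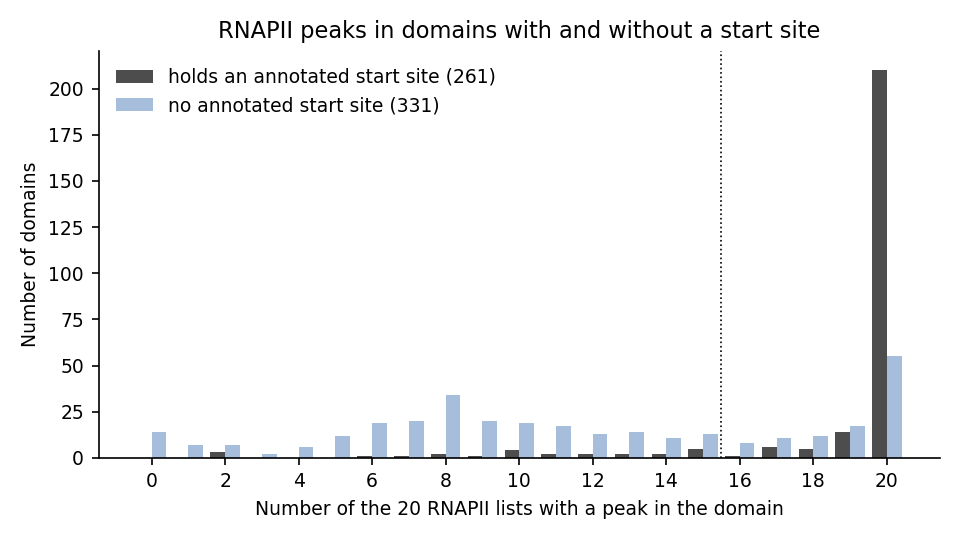
Number of domains (bars) by how many of the 20 RNAPII lists had a peak in them, for domains with and without an annotated start site, with the dotted line before 16 lists. Of the domains with a start 210 are at 20 lists, and those without a start spread over the whole range, with 55 at 20 lists and 14 at 0.

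The domains without a start differed most between libraries. RNAPII peaks were called in 29.6% to 61.9% of them in the 10 dCas9-p300(core) libraries and in 37.5% to 90.6% in the 10 dCas9-VP16(10x) libraries, so the constructs overlapped. At domains with a start the ranges were 87.0% to 97.3% and 90.4% to 99.2%. Intervals of usual width without a start also varied, from 47.2% to 67.1% with dCas9-p300(core) and from 46.0% to 88.8% with dCas9-VP16(10x). There were 35 domains with RNAPII in at least 7 dCas9-VP16(10x) lists and no dCas9-p300(core) list, which is 5.91% of the 592, beside 0.488% of intervals of usual width and 0.478% of all merged intervals. The other way round there were 0 domains, beside 1 interval of usual width and 1.68% of all merged intervals. Most intervals of usual width hold a start and most domains do not, so these shares are not matched for start sites. Nor are they matched for width or for the construct through which members passed the rule. The dCas9-VP16(10x) H3K27ac lists found 572 to 592 of the domains and the dCas9-p300(core) lists 378 to 590. An unequal count of RNAPII lists may thus be partly carried over from the choice of members, which was not tested. The lists also differ by an identifier in the names of the peaks. All dCas9-p300(core) RNAPII lists share one prefix. The 7 dCas9-VP16(10x) lists that share another had RNAPII in 57.1% to 90.6% of the domains without a start. The 3 dCas9-VP16(10x) lists with no prefix, replicate 2 of Pools 1 to 3, had 84.0%, 46.5% and 37.5%, the first within the range of the 7. These 3 held 29987, 19772 and 20545 peaks, and the list at 57.1%, Pool 2 replicate 1, held 16041. Construct and prefix cannot be told apart, and lists also differed in size, from 16041 to 40757 peaks.

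**Figure D4:**
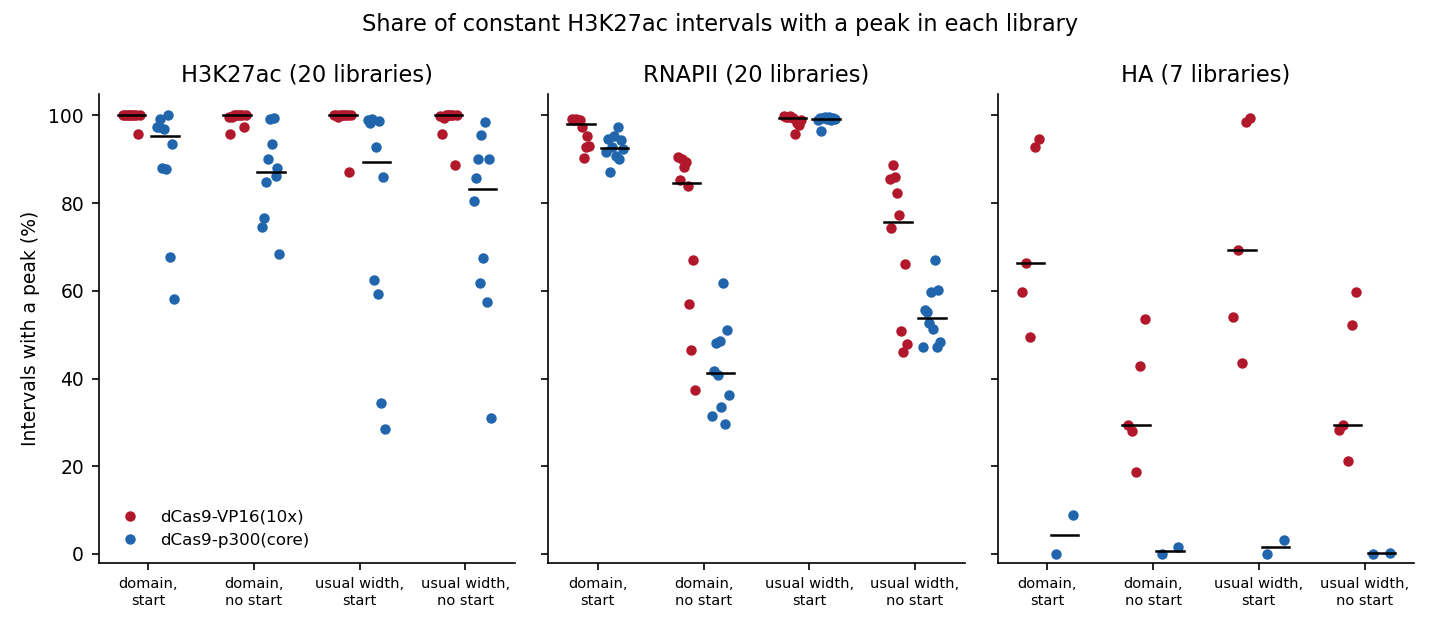
Percent of intervals with a peak in each library (points, black bars for medians) for H3K27ac, RNAPII and HA, in domains and in constant intervals of usual width, with and without a start site. The RNAPII points of domains without a start spread from 29.6% to 90.6%, and those of domains with a start lie at 87.0% or above.

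The size of the RNAPII signal was compared between the constructs at the 8503 merged intervals with an RNAPII peak in all 20 lists, among them 265 of the 592 domains, 210 with a start and 55 without. The highest fold enrichment in the interval was taken as log2 and centred on each library's median, since uncentred values were lower with dCas9-VP16(10x) by a median difference of -0.72 (log2) over all intervals tested. With limma and Benjamini-Hochberg adjustment over all 8503 at an adjusted p of 0.05, 25 domains were higher with dCas9-VP16(10x) and 15 were lower, which is 9.43% and 5.66% of the 265, beside 11.3% and 7.1% of all intervals. Both shares were below those of all intervals, but the order was not stable for the higher direction. Where a peak in 16 or more RNAPII lists was enough, 60 of 335 domains were higher (17.9%, beside 12.7% of all intervals) and 16 lower (4.78%, beside 8.3%). In the fit that required all 20 lists, 10 of the 55 domains without a start were higher (18.2%) and 2 lower (3.64%). Over all intervals these shares were 11.3% and 7.1%. Where 16 lists were enough, 31 of 99 such domains were higher (31.3%, beside 12.7%) and 3 lower (3.03%, beside 8.3%). Without centring, 1 domain was called higher (0.377%, beside 0.282% of all intervals) and 199 lower (75.1%, beside 73.1%).

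CLDN4 had the lowest p. Its uncentred RNAPII fold was 15.6 to 36.2 (median 31.9, n = 10) with dCas9-VP16(10x) and 9.43 to 31.3 (median 16.3, n = 10) with dCas9-p300(core). After centring the difference was 1.53 (log2, SE 0.22, limma adjusted p = 0.00157). The constructs overlapped only through 2 of the dCas9-VP16(10x) libraries with no prefix and 2 dCas9-p300(core) libraries. HUWE1, a ubiquitin ligase gene on the X chromosome, was higher by 0.57 (SE 0.09, limma adjusted p = 0.00238) and LINC02870, a lncRNA gene, by 0.89 (SE 0.17, limma adjusted p = 0.00518). The domain chr11:68859768-68864955 was higher by 1.1 (SE 0.21, limma adjusted p = 0.0053) and chr9:140505234-140510447, whose midpoint is in ARRDC1, by 0.55 (SE 0.12, limma adjusted p = 0.00715). Of these 5, only CLDN4 was still called without centring, at 0.8 (limma adjusted p = 0.00379). LINC02870 and the chromosome 11 domain then stood at 0.17 and 0.38 (limma adjusted p = 0.532 and 0.162), and HUWE1 and the ARRDC1 domain at -0.15 and -0.17 (limma adjusted p = 0.568 and 0.522).

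Among domains lower with dCas9-VP16(10x), ARID5B, a chromatin regulator gene, had the lowest p, with a difference of -0.56 (SE 0.11, limma adjusted p = 0.00486). The domain chr9:132255581-132264692, next to that of ENSG00000261334 and nearest to the start of C9orf50, stood at -0.5 (SE 0.11, limma adjusted p = 0.01) and CAPN15, a calpain family gene, at -0.52 (SE 0.12, limma adjusted p = 0.01). TENM3-AS1 stood at -0.45 (SE 0.11, limma adjusted p = 0.0115), and the MIRLET7BHG domain, the neighbour of the widest member, at -0.52. In all 10 of these domains the centred ranges of the 10 and 10 libraries overlapped.

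The split between higher and lower differed between the dCas9-VP16(10x) libraries with and without a prefix, each set beside the same 10 dCas9-p300(core) libraries and fitted with 1 mean per construct. With the 7 that carry a prefix, 65 of 272 tested domains were higher (23.9%, beside 18.1% of all intervals) and 24 lower (8.82%, beside 14.8%). With the 3 that carry none, 8 of 271 were higher (2.95%, beside 6% of all intervals) and 45 lower (16.6%, beside 9.26%). The split over all intervals thus moved in the same direction. Of the 40 domains called over all libraries, 37 and 11 were called in the same direction in these 2 fits. The number called was also sensitive to single libraries, at the domains and over all intervals. It was 17 without dCas9-p300(core) Pool 2 replicate 2 (6.32% of the domains tested, beside 9.85% of all intervals). It was 18 without its Pool 1 replicate 2 (6.77%, beside 11.5%) and 19 without its Adjacent replicate 1 (7.06%, beside 10.6%). Without its IL1RN replicate 1 it was 68 (24.5%, beside 30.6%). It was 22 to 26 without any one of dCas9-VP16(10x) IL1RN replicates 1 and 2, Adjacent replicate 1, Pool 1 replicate 2 and Pool 2 replicate 1. Those are 8.3% to 9.81% of the domains tested, beside 11.8% to 13.2% of all intervals.

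**Figure D5:**
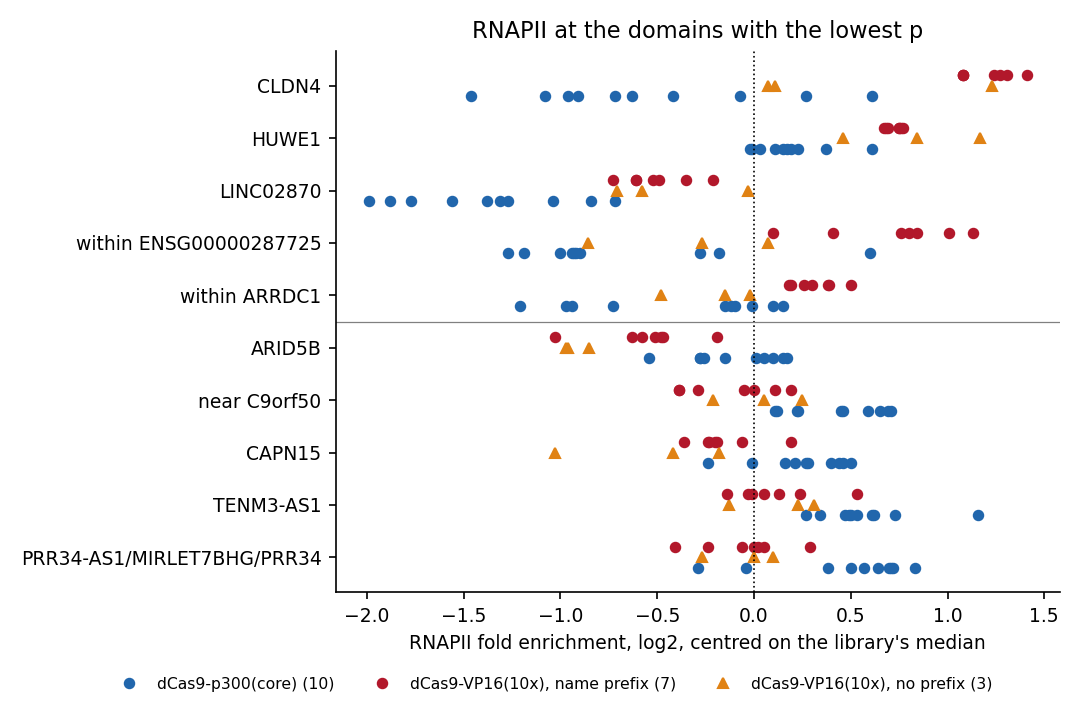
RNAPII fold enrichment (log2, centred on each library's median) in the 5 domains with the lowest p in each direction, 1 point per library, higher with dCas9-VP16(10x) above the grey line and lower below it. Red circles and orange triangles are the dCas9-VP16(10x) libraries with and without a peak-name prefix, and at CLDN4 2 of the 3 triangles lie among the blue dCas9-p300(core) points.

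HA, the tag on the activators, was not used by the rule, and these domains exclude the targeted loci. At least 1 of the 7 HA lists had a peak in 428 of the 592 domains (72.3%), in 91.9% of intervals of usual width and in 48.9% of all merged intervals. For domains found without the 5 H3K27ac lists it was 66.8% (402 of 602), beside 87.0%. Here too the start site divided the members, with 247 of 261 domains with a start (94.6%) and 181 of 331 without one (54.7%). The 5 dCas9-VP16(10x) lists, of 4785 to 30740 peaks, had HA in 32.3% to 71.6% of the domains, and the 2 dCas9-p300(core) lists, of 154 and 141 peaks, in 0 and 28 domains. The lists of dCas9-VP16(10x) ERBS replicate 2 and Adjacent replicate 2 were much the largest, at 30740 and 25109 peaks, and without both the share was 54.7% of domains and 69.1% at usual width.

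No domain had HA in all 7 lists, 14 had it in 6 and 164 in none, 150 of the latter without a start. The widest of the 14 were LINC02939, the domain within NOTCH1, chr19:4367401-4381994 within SH3GL1, an endophilin gene, CRIP2, which encodes a LIM protein, and HMGA2, an architectural chromatin protein gene. At HMGA2 the HA fold was 8.38 to 28.0 (median 11.6) in the 5 dCas9-VP16(10x) lists and 15.7 in the single dCas9-p300(core) list with a peak. The uncentred RNAPII fold there was 10.1 to 30.5 (median 20.6, n = 10) with dCas9-VP16(10x) and 29.4 to 63.2 (median 40.7, n = 10) with dCas9-p300(core). After centring the difference was -0.52 (log2, SE 0.16, limma adjusted p = 0.0327). ESR1 had HA in 2 lists, both with dCas9-VP16(10x), at 12.9 and 14.7, and the FMN1 domain in none.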

How the data were processed

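ChIP-seq for the HA tag, for H3K27ac and for RNAPII was read from the peak lists that the authors deposited, 1 per library. Per the submitters' notes and the study's methods, reads were aligned to hg19 with bowtie 1.1.2, duplicates were removed with samtools and peaks were called per library with MACS2 2.1.0.20140616. The control used for calling is not given in the sources used here. The fold enrichment (ratio) and the -log10 p and q of each peak are the authors' deposited values, with no peak under a -log10 p of 10.0. Their table of 23 regions served only to place the targeted loci. Start sites came from the canonical transcripts of GENCODE v44lift37, which shares the build.

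Everything else was computed here with Python 3.11.15 and limma 3.58.1 in R 4.3.3. The limma model had 1 mean per construct and gRNA set (2 libraries each). Nothing says that replicates were separate cultures, so p-values measure the spread between libraries. The domains, gene lists and tests were chosen with earlier results of these data known. Domains were named by a fixed rule: the 10 widest, the 5 highest in H3K27ac fold, the 5 widest without a start, those next to the width limit, those with listed genes, the 5 lowest p per direction, and the 5 extremes for RNAPII and for HA. Alternatives covered the width, the number of lists, peak strength, overlap, start sites, centring, the replicate block and each library in turn. Some genes and sequences are not reported here.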

Additional observations from a re-analysis of the deposited data

Results flagged for a closer look

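Among 36 sets of 10 libraries of 1 construct, 3 held a library whose gap to its nearest neighbour was a large part of the range, and chance gives about 1 in 20. In the dCas9-p300(core) RNAPII library of Pool 3 replicate 1, the ratio of the median fold at the domains to that at usual width was 0.715, against 0.81 to 0.89 in the other 9. In dCas9-p300(core) Pool 2 replicate 1, the RNAPII fold at CLDN4 was 31.3, against a median of 16.3 over the 10, and at chr11:68859768-68864955 it was 39.3, against 8.08 to 22.5 in the other 9. Both domains were called higher with dCas9-VP16(10x), whose libraries ran from 15.6 to 36.2 at CLDN4 and had a median of 21.0 at the other. The library of Pool 2 replicate 1 also held the most RNAPII peaks of all, 40757, whose part in these values was not tested.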

How the results depend on the processing

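The number of domains follows its thresholds: 993 at 3000 bp, 389 at 5000 bp, 259 with a peak in all 20 lists, 388 from peaks with a -log10 q of 20 or more, 276 where only bases covered by 5 or more lists count, and 488 to 573 without any one list. The share with a start was 34.8% for protein-coding starts alone, 50.7% for every basic transcript and 38.5% for domains found without the 5 lists set apart. RNAPII in 16 or more lists was found in 51.7% from peaks with a -log10 q of 20 or more, in 31.1% for 1000 bp around the midpoint, in 49.7% without the 5 lists, and in 55.7% to 56.8% without any one RNAPII list. HA was found in 66.8% without the 5 lists, in 54.7% without the largest pair of HA lists, and in 67.4% to 72.3% without any one, the lowest without dCas9-VP16(10x) ERBS replicate 2. Each of these shares stayed below that at usual width. Where any one list was left out, a peak in 16 or more lists was still required for the number of domains and the RNAPII share. For HA a peak in 1 list was still enough. That alone can push these values down, whichever list is left out. In the RNAPII comparison 200 domains were called without centring (75.5%, beside 73.3% of all intervals). Where a peak in 16 or more lists was enough, 76 of 335 were called (60 higher, 16 lower), or 22.7%, beside 21%. From peaks with a -log10 q of 20 or more, 26 of 200 were called (13%, beside 18.5%). With only the dCas9-VP16(10x) libraries that carry a prefix and 1 mean per construct, it was 89 of 272 (32.7%, beside 32.8%). Without any one library 17 to 68 were called (6.32% to 24.5%, beside 9.85% to 30.6%). The cause of these shifts was not tested. Without centring HUWE1 stood at -0.15 and the ARRDC1 domain at -0.17. With a replicate block 52 domains were called (19.6%, beside 20.9% of all intervals), all 40 among them. Libraries of the same number deviated together in some pairs of groups and not in others (correlations from -0.384 to 0.701 over 45 pairs, 13 over 0.1), so the numbers were not taken to pair them. A fit with the peak-name prefix as a term was not run, since it could not be told apart from the construct. The alternatives without sets of libraries and the count of every basic transcript were added after seeing the data. Peak lists hold only what passed the authors' threshold, so weak signal below it was not measured.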
